A study of Homo sapiens with 12 samples.

Results

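NOX4 silencing at 1% oxygen was compared in BCPAP, an established human papillary thyroid cancer cell line. The siNOX4 group at 1% oxygen (siRNA against NOX4, then hypoxia) and the siControl group at 1% oxygen (scrambled siRNA, then hypoxia) held 3 libraries each. These 6 of the 12 libraries were chosen by their labels and fitted alone. The other 6 libraries came from the same siRNAs at 20% oxygen (normoxia), 3 with siNOX4 and 3 with siControl. They were used only for the comparison across oxygen levels and in an alternative fit of all 12 libraries. All cells were grown in DMEM with 10% FBS, and each library is from a transfection of its own, per the labels. The model is a transient knockdown in a single cell line, and the labels name neither the siRNA sequences nor the hours at 1% oxygen.

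NOX4 is a membrane enzyme of the NADPH oxidase family. It passes electrons from NADPH to oxygen and releases mainly hydrogen peroxide, works with the small subunit CYBA (p22phox), and is active without a stimulus, so its output is set largely by how much of it a cell makes. Hydrogen peroxide from NADPH oxidases is needed for thyroid hormone synthesis, and NOX4 has been linked to the response of tumour cells to low oxygen. The comparison asks what the cells' messenger RNA looks like under low oxygen when NOX4 is reduced.

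Summed counts were 17969065 to 21282835 per library. The thyroid transcription factors were present (summed level of the 11 thyroid markers 664 to 752 CPM with siNOX4 and 694 to 752 CPM with siControl; CPM, from the counts, is a level scaled to each library's size), but TG, TSHR, SLC5A5, DIO2 and SLC26A4 were under 1 CPM in every library and TSHR had no count. Immune markers summed to 6.52 to 9.25 CPM with siNOX4 and 6.31 to 7.18 CPM with siControl, with CD3E and MS4A1 at 0. Endothelial markers summed to 35.9 to 38.9 CPM with siNOX4 and 27.1 to 32.3 CPM with siControl, with CDH5, VWF, EMCN, ERG and CLDN5 under 1 CPM. Their highest member, the receptor TIE1, was at 31.9, 28.1 and 30.6 CPM with siNOX4 and 24.3, 20.7 and 21.8 CPM with siControl (log2 fold change 0.44, edgeR adjusted p = 0.117). siNOX4 replicate 1 stood apart from the other libraries. Its counts differed from those of the other 5 libraries by a chi-square of 10.5 to 15.7 per degree of freedom, against 2.18 to 6.74 among the other pairs. Mitochondrially encoded RNA made 0.197% of its counts, against 0.318% to 0.325% in the other siNOX4 libraries and 0.331% to 0.358% in the siControl libraries. Results are therefore also given without it.

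NOX4 itself (ENSG00000086991, GRCh38 chr11:89324356-89498187, minus strand) was a rare transcript in these cells. It was counted 4, 3 and 4 times in the siNOX4 libraries, against 17, 8 and 13 times in the siControl libraries. No siNOX4 library reached the lowest siControl library. The mean level was 0.200 ± 0.031 CPM with siNOX4 and 0.665 ± 0.261 CPM with siControl (SD, n = 3 each), so the siNOX4 level was 30.3% of the siControl level (exact 95% interval 14% to 60.4%, counting error only). The two-sided exact permutation test gave p = 0.1, the smallest p that 3 against 3 libraries allow. NOX4 did not pass the filter on low counts and so has no call in the fit across genes. In bulk RNA, fewer cells with a transcript and less of it per cell cannot be told apart, here and in all results that follow.

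The other oxidases and partners of NOX4 gave no call. CYBA, the subunit that NOX4 needs, was at 445, 609 and 564 CPM with siNOX4, against 668, 702 and 594 CPM with siControl. The groups overlapped, and the log2 fold change of -0.28 did not pass (edgeR adjusted p = 0.358). NOX1, a superoxide-making relative, was under 1 CPM in every library, and was at 0.493, 0.383 and 0.108 CPM with siNOX4 and 0.894, 0.979 and 0.565 CPM with siControl (edgeR adjusted p = 0.383). DUOX1, the thyroid-type oxidase, was at 4.22, 3.88 and 4.27 CPM with siNOX4 and 3.80, 3.21 and 3.62 CPM with siControl (edgeR adjusted p = 0.646). POLDIP2, a protein that binds CYBA and raises NOX4 activity, had a log2 fold change of -0.18 (edgeR adjusted p = 0.379). Of the 20 genes on the list of oxidases and partners, 11 passed the filter.

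Few genes passed the test at 1% oxygen, and the differences were small. Of 16335 genes tested with edgeR's quasi-likelihood test, 8 had a Benjamini-Hochberg adjusted p under 0.05, which is 0.049% of genes. Of these, 4 were higher in siNOX4 cells (0.0245%) and 4 were lower (0.0245%). An unadjusted p under 0.05 was found for 1736 genes (10.6%). Among the 11312 genes with at least 5 CPM in the higher group, the median absolute log2 fold change was 0.0827, and 93.4% lay within 0.25 log2 units of 0. A difference of at least 1.5-fold was found for 28 of these genes and of at least 2-fold for 2. The 2 genes, named here after their values were seen, each rested on 1 siNOX4 library. XAGE1A, a cancer-testis antigen with a near-identical copy, was at 2.25, 3.01 and 33.7 CPM with siNOX4 and 4.52, 2.34 and 3.86 CPM with siControl. The pseudogene AC004057.1 was at 8.05, 63.8 and 10.1 CPM with siNOX4 and 11.4, 4.46 and 7.58 CPM with siControl.

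**Figure D1:**
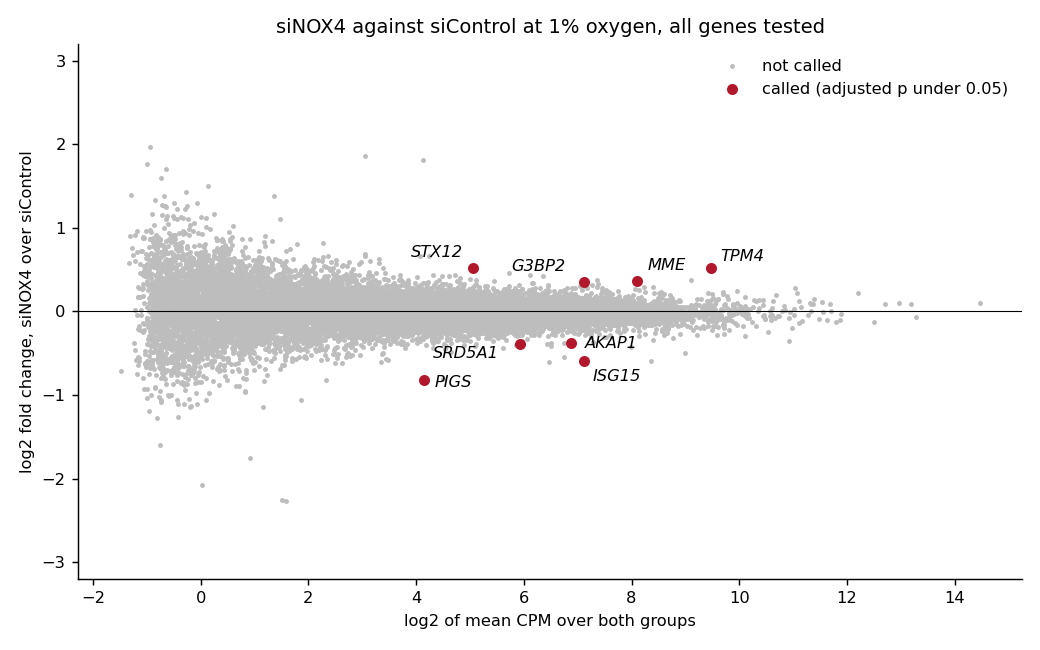
Log2 fold change of siNOX4 over siControl at 1% oxygen (vertical axis) against the log2 of the mean CPM (horizontal axis) for the 16335 genes tested. The 8 called genes (red, named) lie at the edge of a narrow band at middle and high levels, and most genes that differ more have few counts.

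PIGS had the largest log2 fold change of the called genes. It encodes a subunit of the GPI transamidase, the complex that attaches glycolipid anchors to proteins in the endoplasmic reticulum. PIGS (ENSG00000087111, GRCh38 chr17:28553383-28571872, minus strand) was at 12.4, 13.0 and 13.1 CPM with siNOX4, against 21.7, 23.3 and 23.0 CPM with siControl. The groups were far apart and each was tight. PIGS fell to 0.567 times the siControl level (log2 fold change -0.82, SE 0.0895, edgeR adjusted p = 0.00394). Of the 6 fits that leave out 1 library each, 5 called it, and the sixth, without siControl replicate 2, gave an edgeR adjusted p of 0.0622.

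The other called falls were in a mitochondrial anchor, a steroid enzyme and an interferon-induced protein. AKAP1 (ENSG00000121057, chr17:57085092-57121349, plus strand), which tethers protein kinase A to the outer mitochondrial membrane, was at 108, 98.5 and 99.99 CPM with siNOX4 and 136, 129 and 133 CPM with siControl. It fell by 0.38 on the log2 scale (SE 0.0585, edgeR adjusted p = 0.038). SRD5A1 (ENSG00000145545, chr5:6633343-6674386, plus strand), a steroid reductase that makes dihydrotestosterone, was at 55.3, 51.2 and 51.8 CPM with siNOX4 and 67.5, 70.3 and 69.1 CPM with siControl. No library of SRD5A1 or AKAP1 crossed into the other group. SRD5A1 fell by 0.39 on the log2 scale (SE 0.0603, edgeR adjusted p = 0.038). ISG15 (ENSG00000187608, chr1:1001138-1014540, plus strand), a ubiquitin-like protein that interferon induces, was at 95.01, 118 and 118 CPM with siNOX4 and 165, 185 and 151 CPM with siControl. The siNOX4 libraries were all lower, with more spread than for the other called genes. ISG15 fell by 0.60 on the log2 scale (SE 0.0889, edgeR adjusted p = 0.036).

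The called rises were genes of the actin cytoskeleton, endosomes, the cell surface and stress granules. TPM4 (ENSG00000167460, chr19:16067021-16103005, plus strand), a tropomyosin that coats actin filaments, was at 828, 849 and 837 CPM with siNOX4, against 582, 551 and 619 CPM with siControl. The siNOX4 libraries differed from each other far less than from the siControl libraries, and TPM4 rose 1.43-fold (log2 fold change 0.52, SE 0.0625, edgeR adjusted p = 0.00634). STX12 (ENSG00000117758, chr1:27773183-27824452, plus strand), a syntaxin of endosome fusion, was at 39.0, 39.6 and 38.9 CPM with siNOX4 and 26.7, 25.4 and 29.5 CPM with siControl. It rose 1.44-fold (log2 fold change 0.52, SE 0.076, edgeR adjusted p = 0.036), again with no overlap.

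MME (ENSG00000196549, chr3:155024124-155183729, plus strand), which encodes neprilysin, a peptide-cleaving enzyme of the cell surface, was at 300.0, 320.2 and 309.8 CPM with siNOX4 and 245, 245 and 229.9 CPM with siControl. It rose 1.29-fold (log2 fold change 0.37, SE 0.058, edgeR adjusted p = 0.038). G3BP2 (ENSG00000138757, chr4:75642782-75724525, minus strand), an RNA-binding protein of stress granules, was at 153, 160.3 and 152 CPM with siNOX4 and 119.9, 119 and 127 CPM with siControl. It rose 1.27-fold (log2 fold change 0.35, SE 0.0567, edgeR adjusted p = 0.0469). For both genes every siNOX4 library lay above every siControl library. TPM4, MME, AKAP1 and ISG15 overlap a gene on the opposite strand, and the labels do not state whether strand was used in counting. If it was not, reads of the overlapping genes cannot be told apart.

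**Figure D2:**
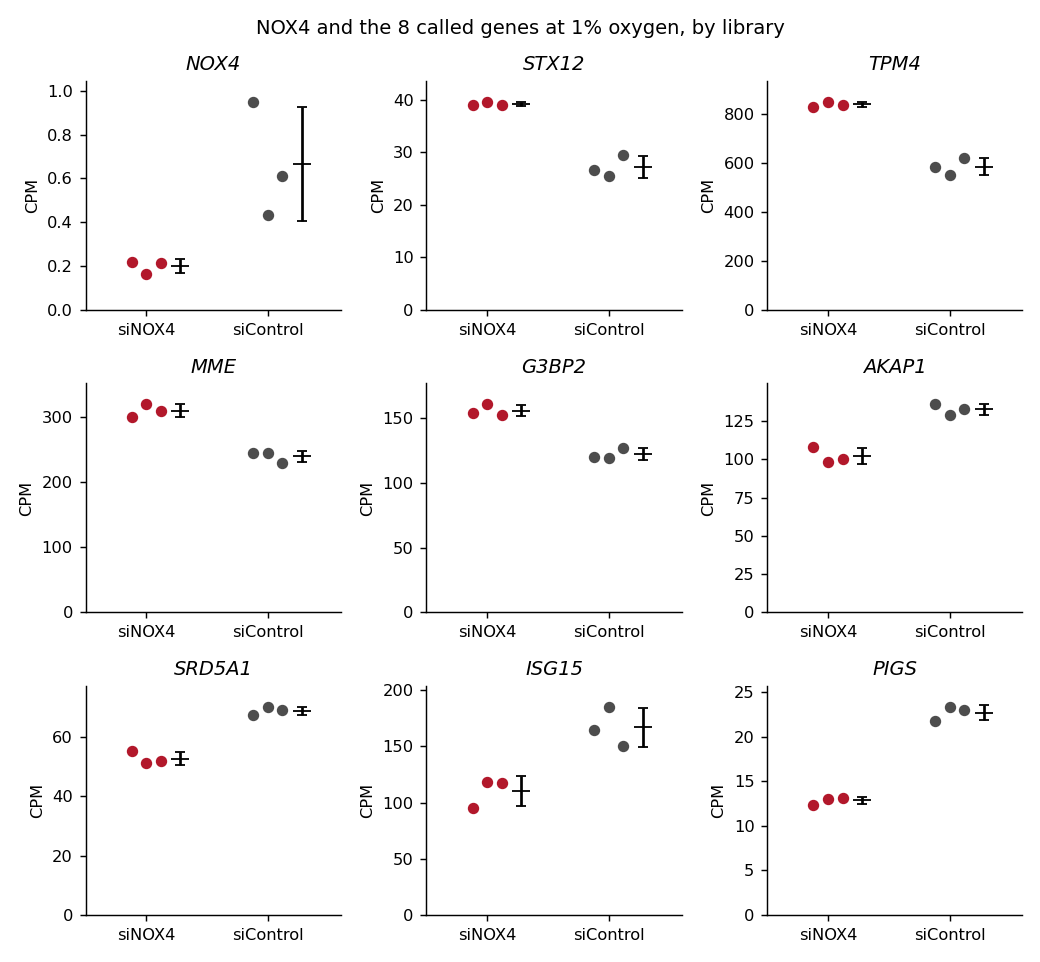
Levels (CPM, from 0) of NOX4 and of the 8 called genes in each library at 1% oxygen, siNOX4 on the left (red) and siControl on the right (grey), with the mean and SD of each group beside the points (n = 3). The groups do not overlap in any of the 9 panels, and NOX4 is under 1 CPM throughout.

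All 8 calls were also made by DESeq2, which called 47 of 11267 genes (0.417%), 26 higher (0.231%) and 21 lower (0.186%), and by limma-voom. They were also made without siNOX4 replicate 1, where 48 genes were called (0.288%), 23 higher (0.138%) and 25 lower (0.15%). The authors' deposited table holds 45 genes at an adjusted p under 0.05 (0.149%), 23 higher (0.0761%) and 22 lower (0.0728%) in siNOX4 cells, and all 8 are among them. In the authors' deposited table PIGS has a log2 fold change of -0.82 and an adjusted p of 1.21e-07. The calls rest on few libraries: without siNOX4 replicate 3 the edgeR count was 1, without siControl replicate 1 it was 1, and without siControl replicate 2 it was 0. A fit of all 12 libraries, whose spread is set in part by the 20% oxygen controls, called 0 genes at this oxygen level.

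A further 8 genes did not pass edgeR's test, though all 8 passed with DESeq2 and in the authors' deposited table. They were named as the next by edgeR p among protein-coding genes with 5 CPM or more and no overlap, 4 in each direction. On the higher side, MAPK6, an atypical MAP kinase, was at 81.2, 77.6 and 82.0 CPM with siNOX4 and 64.2, 64.1 and 61.7 CPM with siControl, a log2 fold change of 0.34 (edgeR adjusted p = 0.0597). ZNF267, a zinc finger protein, was at 10.0, 11.0 and 9.52 CPM with siNOX4 and 5.98, 5.98 and 6.96 CPM with siControl, a log2 fold change of 0.69 (edgeR adjusted p = 0.0867). LPP, a LIM-domain protein of focal adhesions, was at 99.2, 89.2 and 92.0 CPM with siNOX4 and 66.0, 64.6 and 78.7 CPM with siControl (edgeR adjusted p = 0.0867). PPP1R3B, which directs protein phosphatase to glycogen, had a log2 fold change of 0.45 (edgeR adjusted p = 0.0992), with siNOX4 replicate 1 highest at 69.9 CPM.

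On the lower side, GDF15, a secreted cytokine of cell stress, was at 86.0, 90.2 and 83.6 CPM with siNOX4 and 133, 143 and 104 CPM with siControl, a log2 fold change of -0.55 (edgeR adjusted p = 0.0597). YRDC, an enzyme of transfer RNA modification, was at 38.0, 43.1 and 43.2 CPM with siNOX4 and 54.9, 52.6 and 60.8 CPM with siControl (edgeR adjusted p = 0.0638). AEN, a nuclease that p53 induces, had a log2 fold change of -0.33 (edgeR adjusted p = 0.0992). TNFRSF9, a costimulatory receptor of the TNF receptor family, had a log2 fold change of -0.57 (edgeR adjusted p = 0.0992). None of these 8 overlapped between the groups, as the rule that named them required, and all 8 were called without siNOX4 replicate 1. Their DESeq2 adjusted p ran from 8.77e-05 (GDF15) to 0.0209 (TNFRSF9). In the authors' deposited table the adjusted p runs from 6.41e-05 (GDF15) to 0.0426 (TNFRSF9).

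The same siRNA contrast at 20% oxygen compares other libraries, which share no sample with the groups at 1% oxygen. There the siControl libraries were spread widely, with a biological coefficient of variation of 31.6% in siControl cells, against 7.04% in siNOX4 cells. At 1% oxygen it was 8.53% in siNOX4 cells and 5.34% in siControl cells. The 6 libraries at 20% oxygen gave 0 calls among 15734 genes, with 3571 genes at an unadjusted p under 0.05 (22.7%) and 634 calls by DESeq2. Without siControl replicates 1 and 3, which differ from replicate 2, the remaining siControl library was assumed to vary like the other groups. The fit was over 10 libraries, the 6 at 1% oxygen among them, so its spread came in part from the libraries that gave the 8 calls. Its calls are therefore not independent of those at 1% oxygen. That fit called 9 of 18624 genes (0.0483%), 6 higher (0.0322%) and 3 lower (0.0161%), and 4 of the 8 genes called at 1% oxygen were among these 9.

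PIGS, AKAP1, TPM4 and STX12 were called at 1% oxygen and, in the fit without siControl replicates 1 and 3, at 20% oxygen, in the same direction. The 6 libraries at 20% oxygen fitted alone did not call them. There the log2 fold change was -1.295 for PIGS, 1.061 for TPM4 and 1.005 for STX12 (edgeR adjusted p = 0.207 for each). For AKAP1 it was -1.031 (edgeR adjusted p = 0.126). PIGS was at 7.05, 8.33 and 8.14 CPM with siNOX4 at 20% oxygen, against 16.2, 25.3 and 16.3 CPM with siControl. Its log2 fold change without siControl replicates 1 and 3 was -1.69 (SE 0.133, edgeR adjusted p = 5.52e-07). AKAP1 was at 47.5, 47.5 and 51.7 CPM with siNOX4 at 20% oxygen and 97.5, 102.8 and 99.6 CPM with siControl. Each group was tight and they were far apart, and the log2 fold change without siControl replicates 1 and 3 was -1.07 (edgeR adjusted p = 5.52e-07). In that fit TPM4 had a log2 fold change of 0.73 and STX12 of 0.86. ZNF267, not called at 1% oxygen, had 1.14 (edgeR adjusted p = 0.00256).

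For MME, SRD5A1 and G3BP2 the 20% oxygen values without siControl replicates 1 and 3 had the same sign and did not pass. The log2 fold change there was 0.49 for MME (edgeR adjusted p = 0.0503), -0.52 for SRD5A1 (edgeR adjusted p = 0.054) and 0.39 for G3BP2 (edgeR adjusted p = 0.183). ISG15 was the exception. At 20% oxygen it was at 199, 171 and 131 CPM with siNOX4 and 129, 167 and 102 CPM with siControl, so the groups overlapped, and the log2 fold change without siControl replicates 1 and 3 was 0.00 (SE 0.158, edgeR adjusted p = 1.00).

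**Figure D3:**
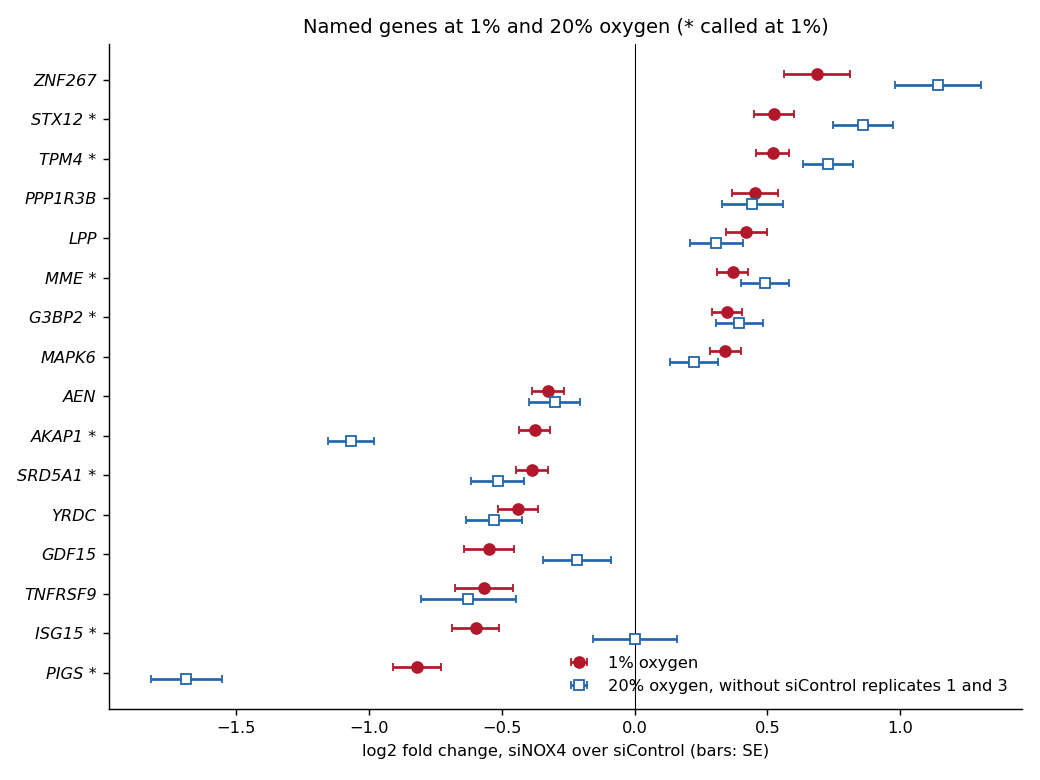
Log2 fold changes of siNOX4 over siControl with their SE for the 8 called genes (starred) and the 8 protein-coding genes named next by p, at 1% oxygen (filled circles) and at 20% oxygen without siControl replicates 1 and 3 (open squares). PIGS (-0.82 and -1.69) and AKAP1 (-0.38 and -1.07) lie farther from 0 at 20% oxygen, and ISG15 lies at 0.00 there.

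The test of the difference between the oxygen levels, the interaction, called 0 of 17277 genes over all 12 libraries with edgeR, with 3609 genes at an unadjusted p under 0.05 (20.9%) and 75 calls by DESeq2. For ISG15 the interaction over the 12 libraries was -0.94 (SE 0.257, edgeR adjusted p = 0.204), with a log2 fold change of 0.33 in all 6 libraries at 20% oxygen. Without siControl normoxia replicates 1 and 3 it was -0.60 (edgeR adjusted p = 0.827), so neither fit shows a difference between oxygen levels past the threshold. Without siControl normoxia replicates 1 and 3, 2 of 18624 genes were called (0.0107%). One was AKAP1, whose siNOX4 effect in that fit was weaker at 1% than at 20% oxygen by 0.69 log2 units. The other was the pseudogene GOLGA2P7. For PIGS the interaction in that fit was 0.86 and was not called. Over all 12 libraries the interaction was 0.65 for AKAP1 (SE 0.104, edgeR adjusted p = 0.159) and 0.47 for PIGS (edgeR adjusted p = 0.258). Neither passed there.

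Gene length moved with the siRNA contrast, which bears on every group of genes that follows. Over the 9536 genes with at least 10 CPM, the Spearman correlation across genes of the log2 fold change with gene length was 0.422, a description only, since genes share libraries. The fifth with the shortest genes had a median log2 fold change of -0.0908 and the fifth with the longest had 0.0561. siNOX4 replicate 1 had the highest value of its own: its deviation from each gene's mean had a correlation with length of 0.484, against -0.184 and 0.111 in the other siNOX4 libraries and -0.341 to -0.154 in the siControl libraries. Without that library the correlation of the fold change with length was 0.229. A fit with a smooth offset for gene length in each library brought it to -0.00823 and called 8 genes, 7 of them the same. MME had an edgeR adjusted p of 0.0544 there.

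**Figure D4:**
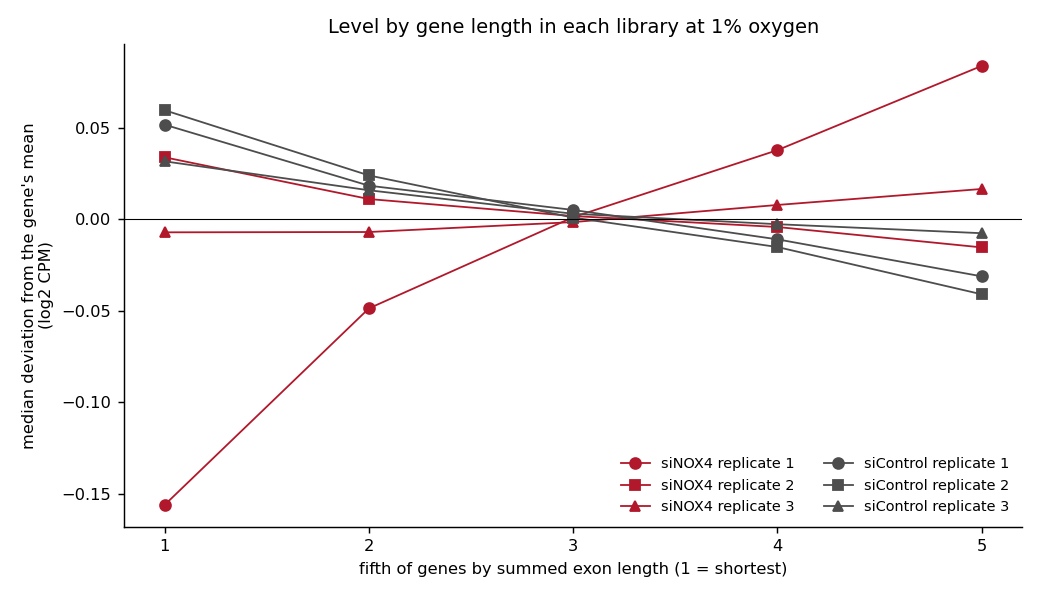
Median deviation of each library from the gene's mean over the 6 libraries at 1% oxygen (log2 CPM) for 5 groups of genes by summed exon length, siNOX4 in red and siControl in grey. siNOX4 replicate 1 runs from -0.156 for the shortest genes to 0.0837 for the longest. The siControl libraries and siNOX4 replicate 2 slope the other way.

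Interferon-stimulated genes were lower in siNOX4 libraries than in siControl libraries for more members than among all genes, though ISG15 alone passed edgeR's test. These genes are switched on by the transcription factors of the interferon pathway and include antiviral enzymes and signalling proteins. Of 43 members tested, 1 was called lower and 0 higher. The libraries of the groups did not overlap for 15 lower members (34.9%, against 8.63% of all genes tested) and 1 higher member (against 8.15%). The median log2 fold change of the list was -0.20, against 0.00279 for all genes tested. With the length offset 12 members were lower without overlap, where 6.83% of all genes are, and without siNOX4 replicate 1 there were 21 (48.8%), where 12.6% of all genes are. Leaving out a library cannot lower a count of genes without overlap, so such counts are to be read only against that share. At 20% oxygen without siControl replicates 1 and 3 the median was -0.16.

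IFI6, a mitochondrial protein induced by interferon, was at 73.8, 73.4 and 63.3 CPM with siNOX4 and 122, 118 and 80.8 CPM with siControl. IFI27, its relative, was at 254, 284 and 247 CPM with siNOX4 and 437, 454 and 297 CPM with siControl. In both, siControl replicate 3 lay nearest to the siNOX4 libraries. Their log2 fold changes were -0.61 and -0.60 (edgeR adjusted p = 0.117 for each). Both were called without siNOX4 replicate 1 (edgeR adjusted p = 0.0317 for IFI6 and 0.0486 for IFI27) and without siControl replicate 3 (edgeR adjusted p = 0.00108 for each). In the authors' deposited table IFI6 has an adjusted p of 0.000499 and IFI27 of 0.158. DESeq2 called neither (DESeq2 adjusted p = 0.178 for IFI6 and 0.162 for IFI27). IRF1, a transcription factor of the pathway, had -0.35 (edgeR adjusted p = 0.232), and LGALS3BP, the member with the highest CPM that was not called, had -0.16 (edgeR adjusted p = 0.465). As a mean over the members, the deviation from the gene's mean was -0.125, -0.0347 and -0.168 in the siNOX4 libraries and 0.145, 0.206 and -0.0233 in the siControl libraries. siControl replicate 3 thus lay just above siNOX4 replicate 2.

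The promoters of ISG15, IFI6 and IFI27, the members with the smallest p, are shown because many members of the list were lower. Each window runs from 250 bases before to 50 after the RefSeq start on GRCh38.p14, 5′ to 3′ on the gene's strand. Capitals mark matches, on either strand, to GAAA followed by any 2 bases and GAAA again, the core of the interferon-stimulated response element, and matches may overlap. The ISG15 window is chr1:1013247-1013546 (plus strand), that of IFI6 is chr1:27672143-27672442 (minus strand), and that of IFI27 is chr14:94110486-94110785 (plus strand).
ISG15: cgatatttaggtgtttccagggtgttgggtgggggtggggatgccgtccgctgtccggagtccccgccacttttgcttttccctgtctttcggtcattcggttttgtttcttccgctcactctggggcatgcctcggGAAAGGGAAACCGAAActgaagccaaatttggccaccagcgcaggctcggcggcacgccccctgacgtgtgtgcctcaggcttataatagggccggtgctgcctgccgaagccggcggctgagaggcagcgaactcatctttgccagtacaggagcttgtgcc
IFI6: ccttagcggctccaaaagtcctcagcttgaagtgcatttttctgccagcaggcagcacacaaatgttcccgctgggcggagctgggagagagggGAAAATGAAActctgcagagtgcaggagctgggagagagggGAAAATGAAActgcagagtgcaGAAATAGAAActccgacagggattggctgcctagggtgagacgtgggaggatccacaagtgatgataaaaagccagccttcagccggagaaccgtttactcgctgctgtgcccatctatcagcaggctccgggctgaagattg
IFI27: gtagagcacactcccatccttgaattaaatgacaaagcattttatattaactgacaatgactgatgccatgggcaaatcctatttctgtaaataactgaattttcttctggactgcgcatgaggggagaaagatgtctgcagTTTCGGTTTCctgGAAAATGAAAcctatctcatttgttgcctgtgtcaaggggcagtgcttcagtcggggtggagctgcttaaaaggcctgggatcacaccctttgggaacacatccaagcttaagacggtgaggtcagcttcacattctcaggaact
ISG15 had 2 matches starting 113 and 107 bases before the start, IFI6 had 3 and IFI27, whose first of 2 windows is shown, had 2. A match was found for 23 of the 34 listed genes in the promoter table (67.6%), against 1195 of all 27305 genes (4.38%). A match describes the letters of the window and does not show that a factor is bound there. The list was drawn up of interferon-stimulated genes, so a high share with this element goes with membership of the list. The share does not bear on the siRNA contrast.

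Antigen presentation genes, which load peptides onto MHC class I, had the highest share of lower members. Of 17 tested, 0 were called in either direction, 9 were lower without overlap (52.9%, against 8.63%) and 0 were higher. The median log2 fold change was -0.20. With the length offset there were 7 (against 6.83% of all genes). PSME2, an interferon-induced activator of the proteasome, was at 75.7, 91.0 and 92.4 CPM with siNOX4 and 107, 104 and 105 CPM with siControl (log2 fold change -0.28, edgeR adjusted p = 0.232). TAP1, the peptide transporter, was at 55.3, 55.0 and 55.9 CPM with siNOX4 and 63.7, 62.9 and 66.4 CPM with siControl (log2 fold change -0.22, edgeR adjusted p = 0.264). HLA-B was at 111, 115 and 108 CPM with siNOX4 and 139, 127 and 126 CPM with siControl, and HLA-E, the member with the highest CPM, had a log2 fold change of -0.11 (edgeR adjusted p = 0.511). HLA genes are alike in sequence, and the labels do not say how reads shared among them were counted.

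**Figure D5:**
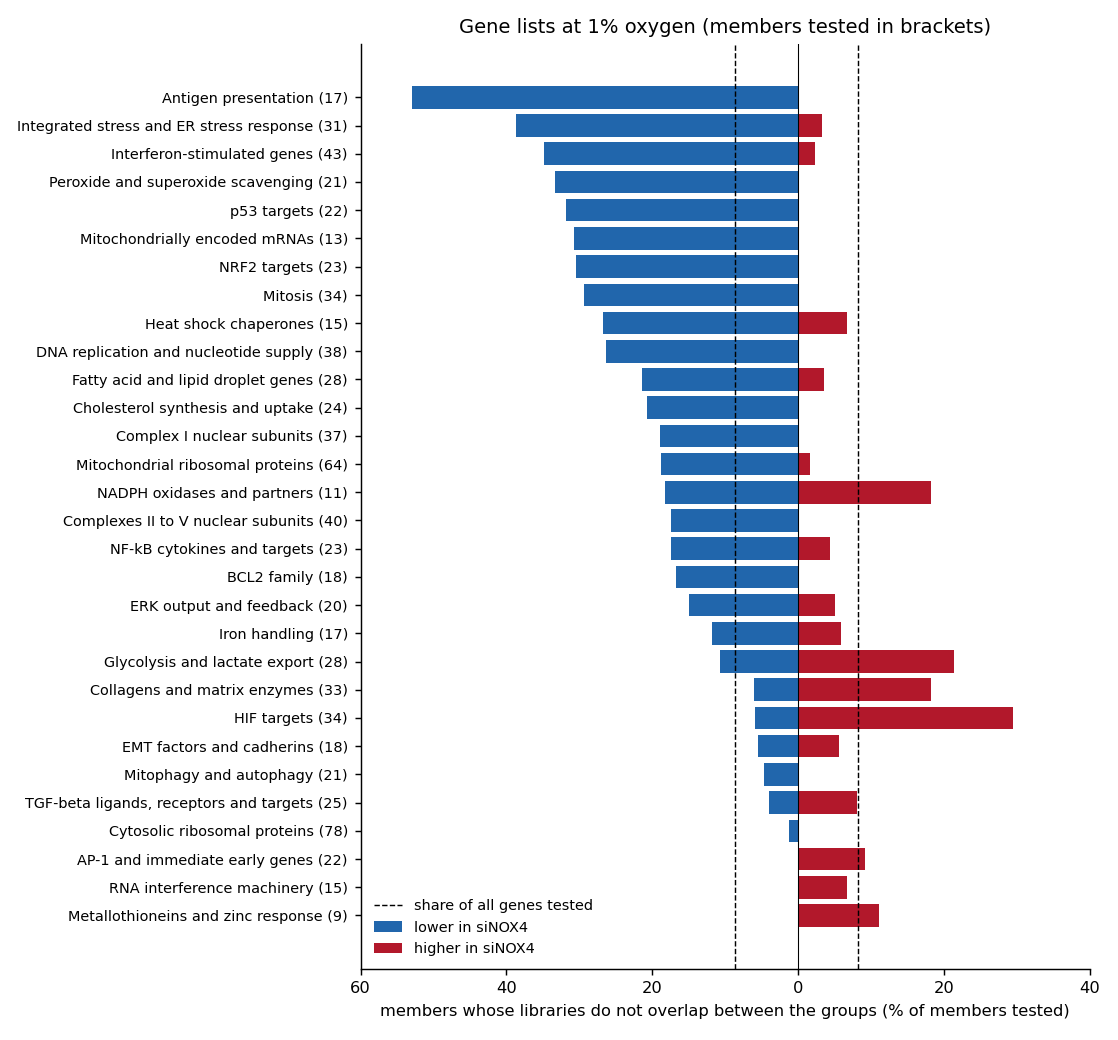
Share of the tested members of each of the 30 gene lists whose libraries do not overlap between the groups at 1% oxygen, lower in siNOX4 (blue, to the left) and higher (red, to the right), with the shares of all genes tested (dashed, 8.63% and 8.15%). Antigen presentation reaches 52.9% on the lower side and HIF targets 29.4% on the higher side.

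Genes that deal with hydrogen peroxide and oxidative stress held 0 calls, and more of them were lower without overlap than higher. Among 21 scavenging enzymes tested, 7 were lower without overlap (33.3%, against 8.63%) and 0 were higher, with a median log2 fold change of -0.11. GPX1, a glutathione peroxidase, was at 222, 254 and 248 CPM with siNOX4 and 288, 297 and 263 CPM with siControl (edgeR adjusted p = 0.308). GPX4, which reduces lipid peroxides, was at 311, 381 and 353 CPM with siNOX4 and 414, 422 and 395 CPM with siControl (edgeR adjusted p = 0.308). In both, siNOX4 replicate 1 was lowest. TXNRD1, a thioredoxin reductase and the member with the highest CPM, was at 692, 709 and 669.6 CPM with siNOX4 and 739.9, 753 and 743 CPM with siControl (edgeR adjusted p = 0.51). With the length offset 6 members were lower (against 6.83% of all genes) and 2 were higher (against 9.0%). As a mean over the members, the deviation from the gene's mean was -0.177, 0.051 and -0.0323 in the siNOX4 libraries and 0.0451, 0.0909 and 0.0226 in the siControl libraries, so the groups overlapped through siNOX4 replicate 2.

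Targets of NRF2, the transcription factor that answers oxidative stress, gave a like count. Of 23 tested, 7 were lower without overlap (30.4%, against 8.63%) and 0 higher, with a median log2 fold change of -0.175. With the length offset 7 were lower (against 6.83%) and 1 was higher. The mean deviation over the list was -0.148, 0.0271 and -0.074 in the siNOX4 libraries and 0.0947, 0.0991 and 0.00106 in the siControl libraries, where siNOX4 replicate 2 lay above siControl replicate 3. NQO1, a quinone reductase, was at 40.0, 47.9 and 45.8 CPM with siNOX4 and 57.3, 61.7 and 50.7 CPM with siControl (log2 fold change -0.34, edgeR adjusted p = 0.211). HMOX1, haem oxygenase, was at 385, 505 and 378 CPM with siNOX4 and 645, 692 and 448 CPM with siControl. Its groups overlapped, through siNOX4 replicate 2 and siControl replicate 3 (log2 fold change -0.49, edgeR adjusted p = 0.29). The ferritin chain FTH1 had -0.35 (edgeR adjusted p = 0.301).

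Hypoxia-inducible factor (HIF) targets were the list with the largest share of higher members. Of 34 tested, 0 were called, 10 were higher without overlap (29.4%, against 8.15% of all genes) and 2 were lower (5.88%, against 8.63%). With the length offset 10 were higher, where 9.0% of all genes are. Without siNOX4 replicate 1 there were 11 (32.4%, where 12.8% of all genes are). The size was small, with a median log2 fold change of 0.0361. The mean deviation over the list was 0.0162, 0.0406 and -0.0184 in the siNOX4 libraries and -0.0106, 0.0141 and -0.042 in the siControl libraries, and these means overlapped. PDK1, the kinase that turns pyruvate away from mitochondria, was at 119, 121 and 123 CPM with siNOX4 and 108, 108 and 110.1 CPM with siControl (log2 fold change 0.16, edgeR adjusted p = 0.352). KCTD11, a ubiquitin ligase adaptor, had 0.24 (edgeR adjusted p = 0.29), and SLC2A1, the main glucose transporter, had 0.08 (edgeR adjusted p = 0.646). For the well-known targets CA9 and VEGFA the groups overlapped, and the sign of the fold change turned with the length offset. CA9, a carbonic anhydrase, was at 69.7, 77.5 and 65.3 CPM with siNOX4 and 72.6, 72.9 and 68.3 CPM with siControl. VEGFA, the angiogenic growth factor, was at 1629, 1603 and 1482 CPM with siNOX4 and 1530.3, 1589 and 1476 CPM with siControl (edgeR adjusted p = 0.87). On the lower side, BHLHE41, a transcriptional repressor, had a log2 fold change of -0.39 (edgeR adjusted p = 0.188) and STC2, a secreted glycoprotein, had -0.13 (edgeR adjusted p = 0.5).

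Among 28 genes of glycolysis and lactate export, 6 were higher without overlap (21.4%, against 8.15% of all genes) and 3 were lower (10.7%, against 8.63%). PFKL, a phosphofructokinase, had a log2 fold change of 0.21 (edgeR adjusted p = 0.326) and GPI, the isomerase one step before it, had -0.20 (edgeR adjusted p = 0.29). Of 33 collagens and matrix enzymes tested, 6 were higher (18.2%) and 2 were lower (6.06%), against the same shares, and with the length offset 4 were higher (against 9.0%). COL4A1, a basement membrane collagen, had 0.24 (edgeR adjusted p = 0.3), while the protease inhibitors TIMP1 and TIMP3 had -0.30 (edgeR adjusted p = 0.308) and -0.50 (edgeR adjusted p = 0.3). Neither list held a call.

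Stress and growth lists held 0 calls, and more of their members were lower without overlap than higher. The shares of all genes to set beside these counts of lower members are 8.63%, and 6.83% with the length offset. For the integrated stress and ER stress response, 12 of 31 tested were lower without overlap (38.7%) and 1 was higher, and with the length offset 7 were lower and 2 higher. DDIT3 (CHOP), a transcription factor of this response, was at 83.3, 93.3 and 91.8 CPM with siNOX4 and 107, 101 and 104 CPM with siControl (edgeR adjusted p = 0.29). SLC3A2, the heavy chain of an amino acid transporter, had -0.23 (edgeR adjusted p = 0.3), and its light chain SLC7A5 had -0.03 (edgeR adjusted p = 0.911). Of 38 DNA replication genes, 10 were lower (26.3%), and TK1, thymidine kinase, was at 89.2, 97.9 and 94.2 CPM with siNOX4 and 117, 112 and 114 CPM with siControl (edgeR adjusted p = 0.117). Of 34 mitosis genes, 10 were lower (29.4%), among them the spindle checkpoint gene MAD2L1 with -0.27 (edgeR adjusted p = 0.301). With the length offset 6 members were lower in each of these lists, and 3 replication genes were higher. Of 22 p53 targets, 7 were lower (31.8%), and 2 with the length offset, near the share of all genes.

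Mitochondrial lists depended on siNOX4 replicate 1. All 13 mitochondrially encoded mRNAs had a negative log2 fold change, 4 of them without overlap (30.8%, against 8.63% of all genes), with a median of -0.28 that was -0.08 without that library. MT-ND1, a complex I subunit, was at 54.9, 87.2 and 91.8 CPM with siNOX4 and 104, 108 and 99.5 CPM with siControl (edgeR adjusted p = 0.33). Of 37 nuclear complex I subunits 34 were negative and 7 were lower without overlap (18.9%), with a median of -0.13, against -0.04 without siNOX4 replicate 1 and -0.05 with the length offset. Of 64 mitochondrial ribosomal proteins 12 were lower without overlap (18.8%), and 5 with the length offset, near the 6.83% of all genes, and the median was -0.12, against -0.04 without siNOX4 replicate 1.

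Cytosolic ribosomal protein genes also turned on that library. With all 6 libraries the 78 genes had a median log2 fold change of -0.03. Without overlap, 0 were higher (against 8.15% of all genes) and 1 was lower (1.28%, against 8.63%). Without siNOX4 replicate 1 the median was 0.10, and 63 of the 78 were higher without overlap (80.8%, where 12.8% of all genes are). The mean deviation over the list was -0.286 in siNOX4 replicate 1, 0.138 and 0.0998 in the other siNOX4 libraries, and 0.00505, -0.00505 and 0.0484 in the siControl libraries. With the length offset and all 6 libraries, 2 were higher (against 9.0% of all genes) and 0 were lower (against 6.83%).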

How the data were processed

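Total RNA of 12 BCPAP libraries was made into libraries with an Illumina TruSeq kit, as the labels state, and sequenced. The deposited table holds whole-number counts per gene and library, and FPKM made by the authors, per the file headers. For each pair of groups it gives log2 fold changes with a p-value, both deposited by the authors. Bowtie 0.12.2 and the mouse builds mm8 and mm9 are named, with no role, per the submitters' processing notes, and no counter or annotation is stated. All 58735 genes had the identifiers and positions of GENCODE 29 (GRCh38), and 12 gene names deposited as dates were replaced from it.

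Counts of the 6 libraries at 1% oxygen were fitted alone with edgeR 4.0.16 (R 4.3.3), using TMM scaling, filterByExpr by group and the quasi-likelihood F test, with calls where the Benjamini-Hochberg adjusted p over all genes tested was under 0.05. The prior degrees of freedom were 10.2 and the common biological coefficient of variation was 7.14%. The SE is the log2 fold change divided by the root of F. The 20% oxygen libraries were fitted likewise, and the interaction over all 12. The fit at 20% oxygen without siControl replicates 1 and 3 was over the other 10 libraries, the 6 at 1% oxygen included. Exact permutation tests and intervals used scipy 1.17.1. Intervals cover counting error only. Simulated counts held 50 genes at each planted log2 fold change of -1, -0.5, 0.5 and 1. In that order, the fit at 1% oxygen called 45, 30, 38 and 50 of them. The fit at 20% oxygen called 8, 0, 0 and 19, and the interaction called 12, 1, 2 and 11. Among unchanged genes these fits called 6 of 16135, 1 of 15534 and 1 of 17077. A missing call at 20% oxygen or in the interaction therefore does not show that a difference of this size is absent. Replicate numbers were not treated as pairs in the main fits.

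Alternatives were DESeq2 1.42.0, limma 3.58.1 (voom on counts, trend on log2 of FPKM plus 1 or 0.1, FPKM floor of 1), other scalings and filters, a replicate block and left-out libraries. Offsets for gene length and GC content and the fit without siControl normoxia replicates 1 and 3 were added after seeing the data.

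After NOX4, the named genes were the called protein-coding genes whose groups did not overlap and whose higher group had 5 CPM or more, filled up to 8 in each direction by p. From each of 30 gene lists up to 3 called members and the member with the highest CPM that was not called could be named. Other genes, among them further list members with small p, were named after their values were seen. The comparison, the lists and these rules were chosen with earlier results of these data known. Lists are described by counts, with no set test. Markers of fibroblasts summed to 78.8 to 83.3 CPM with siNOX4 and 82.2 to 88.9 CPM with siControl, and those of epithelium summed to 911 to 980.0 CPM with siNOX4 and 972 to 1060 CPM with siControl. KRT19 and CDH1 were under 1 CPM. Values of a few genes are not reported here.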

Additional observations from a re-analysis of the deposited data

Results flagged for a closer look

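GADD45A, a growth arrest gene that p53 induces, had opposite signs at the 2 oxygen levels, with no overlap between the siRNA groups at either. The share of all genes with such a pattern is not given, for GADD45A here or DUOX1 below. At 1% oxygen alone 16.8% of all genes tested did not overlap, in either direction. At 1% oxygen it was at 778, 756 and 825 CPM with siNOX4 and 843, 849.9 and 949 CPM with siControl (log2 fold change -0.16, edgeR adjusted p = 0.424). At 20% oxygen it was at 1339, 1295 and 1130.3 CPM with siNOX4 and 593, 1126 and 694 CPM with siControl. The lowest siNOX4 library there lay only just above siControl replicate 2, from which siControl replicates 1 and 3 differ. The interaction over the 12 libraries was -0.81 (SE 0.261, edgeR adjusted p = 0.204), and without siControl normoxia replicates 1 and 3 it was -0.33 (edgeR adjusted p = 0.842).

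DUOX1, a thyroid-type oxidase, came up by the same pattern with the signs turned round. Its log2 fold change at 1% oxygen was 0.22 (edgeR adjusted p = 0.646). At 20% oxygen it was at 1.85, 2.51 and 2.05 CPM with siNOX4 and 4.14, 2.80 and 2.87 CPM with siControl. The interaction was 0.83 (SE 0.295, edgeR adjusted p = 0.204), so neither gene's difference between oxygen levels passed.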

How the results depend on the processing

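At 1% oxygen the 8 calls were 226 with no filter on low counts, 47 with DESeq2, 25 with the replicate block, 18 with length and GC offsets, and 0 with limma-trend on FPKM (pseudocounts 1 and 0.1) and in the fit of all 12 libraries; left-out libraries gave 0 (without siControl replicate 2) to 48 (without siNOX4 replicate 1). Called members of the gene lists, 1 in the report, were 53 with no filter, 5 with the replicate block, 4 with DESeq2, 4 with both offsets, and 0 with limma-trend (both pseudocounts) and with all 12 libraries, and 0 to 11 over left-out libraries. At 20% oxygen 0 calls became 1310 with no filter, 634 with DESeq2, 2593 with all 12 libraries and 9 without siControl replicates 1 and 3, and 0 to 9313 over left-out libraries, the highest without siControl replicate 2. The interaction's 0 became 2107 with no filter, 75 with DESeq2, 4 with limma-trend (pseudocount 0.1), 2 without siControl normoxia replicates 1 and 3, and 0 to 7696 over left-out libraries, the highest without siControl normoxia replicate 2. The causes were not tested. Replicate numbers showed no clear pairing: the correlations of same-numbered libraries' deviations were -0.0127, 0.0857 and 0.0422. Those of differently numbered libraries ran from -0.104 to 0.0599. So few correlations cannot settle whether the libraries were paired. CA9's log2 fold change, -0.01, was 0.0023 with upper-quartile scaling, 0.11 with the length offset, 0.11 with both offsets and -0.0797 to 0.0446 over left-out libraries; VEGFA's, 0.04, was -0.032 with the length offset and -0.0208 with both; XAGE1A's, 1.86, ran from -0.45 (without siNOX4 replicate 3) to 2.36. NOX4 stayed at 26.1% to 37.7% of siControl over left-out libraries, on 11 and 38 counts.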

Other observations

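No member of the lists of inflammation and lipid supply was called. Of 23 NF-kB cytokines and targets tested, 4 were lower without overlap (17.4%, against 8.63% of all genes) and 1 was higher, while under the length offset 2 were lower (against 6.83%) and 3 were higher (against 9.0%). CXCL1, a chemokine for neutrophils, was at 113, 116 and 119.9 CPM with siNOX4 and 144, 148 and 128 CPM with siControl (log2 fold change -0.27, edgeR adjusted p = 0.203). CXCL8, a further one, was at 723, 833 and 799 CPM with siNOX4 and 890.4, 921 and 883 CPM with siControl (edgeR adjusted p = 0.352). Of 24 genes of cholesterol synthesis and uptake 5 were lower (20.8%) and 0 were higher. Of 28 fatty acid and lipid droplet genes 6 were lower (21.4%) and 1 was higher, and FADS2, a fatty acid desaturase, was at 16.4, 17.1 and 18.3 CPM with siNOX4 and 22.6, 23.4 and 21.4 CPM with siControl (edgeR adjusted p = 0.188).

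The lists that follow lay nearer to the shares of all genes without overlap, 8.15% higher and 8.63% lower. Of 22 AP-1 and immediate early genes 2 were higher (9.09%) and 0 lower, and of 25 TGF-beta genes 2 were higher (8.0%) and 1 lower (4.0%). Of 20 genes of ERK output 1 was higher (5.0%) and 3 lower (15.0%), and of 17 iron genes 1 was higher (5.88%) and 2 lower (11.8%). TFRC, the transferrin receptor, was at 749, 700.1 and 753 CPM with siNOX4 and 625, 584 and 675 CPM with siControl (log2 fold change 0.23, edgeR adjusted p = 0.308). Of 15 genes of the RNA interference machinery, which the siRNAs use, 1 was higher (6.67%) and 0 were lower.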
